A study of Mus musculus with 4 samples.

Results

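Capillary and venous endothelial nuclei of the mouse kidney were picked out of a single-nucleus RNA-seq experiment by their own transcripts. A nucleus was a member when it had a UMI of at least 3 of 8 endothelial genes (*Pecam1*, *Flt1*, *Emcn*, *Ptprb*, *Kdr*, *Cdh5*, *Adgrl4*, *Plvap*) and at most 1 UMI over 5 arterial genes (*Sox17*, *Gja4*, *Gja5*, *Slc14a1*, *Fbln5*). A UMI is a tag that lets each captured RNA molecule be counted once. This rule found 1527 of the 27343 nuclei kept. The nuclei came from 4 male mice aged 12 weeks, all homozygous for a floxed *Tfap2a* allele: 2 Hoxb7Cre+;Tfap2a fl/fl mice, called knockout here, and 2 littermates without Cre, called control. *Tfap2a* encodes a transcription factor of the AP-2 family, and Hoxb7Cre recombines the floxed allele in the collecting ducts and the epithelium of the lower urinary tract, not in endothelium. The comparison therefore asks how the vessels of a kidney differ when the deletion lies in a neighbouring epithelium. Each mouse gave 1 library, from a middle slice of a kidney whose cortex had been trimmed, so the tissue was rich in medulla.

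Blood that has passed the glomerulus enters capillaries around the tubules and, in the medulla, the vasa recta, which run down and back beside the loops of Henle. The peritubular capillaries and the ascending vasa recta are fenestrated and take up the water and solute that tubules return, and their walls carry PLVAP, the protein of the fenestral diaphragm. Their upkeep depends on VEGF, which acts through the receptors KDR and FLT1, and on angiopoietins, which act through the receptor TEK.

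The 4 libraries held between 22179410 and 44964099 UMIs, and between 5430 and 7998 nuclei were kept in each. The members numbered 503 and 327 in control mice 1 and 2, and 436 and 261 in knockout mice 1 and 2. Their UMI sums were 969548, 555664, 820329 and 467646 in the same order, with medians per nucleus between 1418 and 1545. The median mitochondrial percentage of members was 2.27% and 0.922% in controls and 1.62% and 0.628% in knockouts, so both mice numbered 1 stood above both mice numbered 2. Any 2 libraries shared between 7 and 18 cell barcodes, where random draws from the barcodes listed would give between 4.94 and 9.11. *Tfap2a* itself had 5 and 1 UMIs in the members of controls and 3 and 1 in those of knockouts, too few to check the labels, and the 3′ tags need not lie in the deleted exons.

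Members were chosen by their UMIs of the genes of the rule, whose values are given as a description with no test. *Emcn*, a sialomucin of venous and capillary endothelium, was seen in 94.8% of members, *Flt1* in 86.0%, *Plvap* in 83.9%, *Ptprb*, a phosphatase that restrains TEK, in 78.5%, and *Kdr* in 52.9%. In the nuclei with fewer than 3 of the 8 genes, which had a median of 2699 UMIs against 1488 in members, the same genes were seen in between 0.343% and 1.57%. *Flt1* stood at 1594 and 1936 CPM (counts scaled to a common total of UMIs) in controls and 1843 and 2352 CPM in knockouts. At the lower edge of the rule, 84 nuclei with 3 of the genes held 4087 CPM over the 8 genes together, and 126 nuclei with only 2 of them held 1179 CPM. At the arterial edge, 159 members had 1 arterial UMI, and 45 nuclei left out had 2.

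Endothelial genes that the rule did not use were found in the same nuclei. *Tek* had a UMI in 71.1% of members against 1.65% of non-endothelial nuclei, *Eng*, a co-receptor for BMP9, in 71.2% against 1.51%, and *Erg*, a transcription factor of the endothelial lineage, in 34.1% against 0.347%. These genes set members apart from non-endothelial nuclei. *Tek* was also seen in 52.9% of arterial nuclei, so it does not tell capillary and venous from arterial endothelium. The 10 genes that most exceeded all of the arterial, the interstitial and the remaining non-endothelial nuclei were *Nlgn1*, *Igf1*, *Robo3*, *Cmklr1*, *Rgcc*, *Ednrb*, *Tll1*, *Rnf157*, *Lrfn2* and *Lama4*. *Ednrb*, the endothelin receptor of endothelium, was seen in 46.1% of members and 14.5% of arterial nuclei, and *Rgcc*, a regulator of the cell cycle, in 70.4% and 21.0%.

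Members were not free of RNA from tubules. The 12 genes of a proximal tubule list, mostly *Kap*, made up 27967 and 15428 CPM in members of controls and 34503 and 11708 CPM in those of knockouts, against between 44052 and 89419 CPM in barcodes with under 100 UMIs, which hold free RNA. *Kap* was seen in 99.7% of members. These sums followed the replicate number and not the genotype. The 18 mural and fibroblast genes summed to between 255 and 364 CPM, with *Col1a1* and *Postn* at 0, and the 14 immune cell genes to between 28.8 and 85.3 CPM, with *Cd163* and *Cd3e* at 0.

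Clustering of the members alone gave 5 clusters. Cluster 1, with 823 nuclei, met 5 of 6 markers of cortical peritubular capillary (*Igfbp3*, *Npr3*, *Cd300lg*, *Meox1*, *Rgcc*) and was called cortical peritubular capillary-like. It was led by *Btnl9*, *Gpihbp1*, which carries lipoprotein lipase to the capillary lumen, and *Esm1*, a secreted proteoglycan of VEGF-stimulated endothelium. Cluster 1 also met 3 of 9 glomerular capillary markers (*Ehd3*, *Smad6*, *Pi16*) and 2 of 6 medullary capillary markers (*Igfbp5*, *Gpihbp1*). Of 15 arterial and descending vasa recta markers it met 3 (*Sox17*, *Efnb2*, *Dll4*). Cluster 2, with 360 nuclei, met 4 of 10 markers of venous and ascending vasa recta endothelium (*Nr2f2*, *Tek*, *Vcam1*, *Mmrn2*) and was called venous and ascending vasa recta-like. *Tek* and *Mmrn2* were met by cluster 1 as well, with *Mmrn2* at 278 CPM there and 266 CPM in cluster 2. Of the same list *Aplnr* was met by cluster 1, *Vwf* by cluster 3 and *Gpm6a* by cluster 4, and none of these by cluster 2. Cluster 2 also met 2 of 6 medullary capillary markers (*Cd36*, *Igf1*). *Nr2f2*, the factor that sets venous identity, stood at 489 CPM there against 117 CPM in cluster 1, and *Kdr* at 223 CPM against 1137 CPM. *Igf1* stood at 1400 CPM in cluster 2 and 60.6 CPM in cluster 1.

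Cluster 3, with 158 nuclei, had too few markers of any list for a name and is called the *Cryab*-high cluster. *Cryab*, a small heat shock protein, reached 18795 CPM there against 271 CPM in cluster 1, *Akr1b3*, the aldose reductase that makes sorbitol in hypertonic medulla, 4476 CPM against 98.9 CPM, and *Nupr1*, a stress-induced chromatin protein, 3618 CPM against 56.5 CPM. Its nuclei kept *Emcn* in 98.7%, *Plvap* in 84.2% and *Ptprb* in 88.6%, with *Flt1* in 46.8%. Clusters 4 and 5, with 109 and 77 nuclei, carried tubule genes beside the endothelial ones. Cluster 4 carried genes of the proximal tubule (*Slc22a28*, *Slc5a12*), and cluster 5 those of the thick limb and distal tubule (*Slc12a1*, *Slc12a3*, *Trpm6*). Cluster 5 also met 10 of 13 collecting duct markers, among them *Aqp2*, *Fxyd4* and *Tfap2a*. The median UMI counts of clusters 4 and 5 were 4167 and 3377, against 1395 in cluster 1, and no doublet caller was run. The called genes and the counts of the lists are given with and without these clusters.

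**Figure D1:**
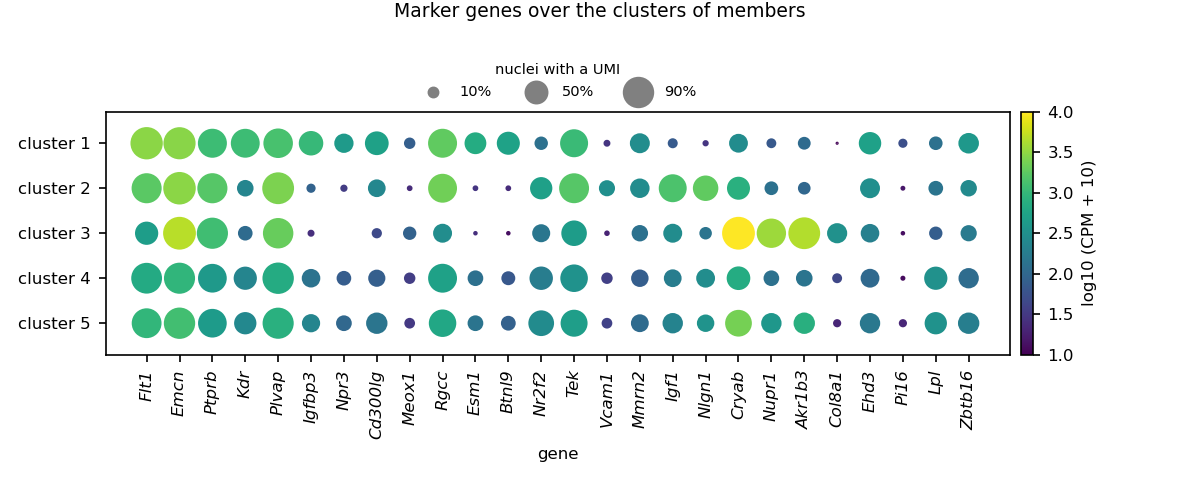
Marker genes over the 5 clusters of members. Dot size is the percentage of a cluster's nuclei with a UMI, and colour is log10 of CPM + 10 over the cluster's summed UMIs; *Esm1* and *Btnl9* are high in cluster 1, *Igf1* and *Nlgn1* in cluster 2, and *Cryab*, *Nupr1* and *Akr1b3* in cluster 3.

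Members were a smaller part of the nuclei in both knockout mice, though the exact test over 4 mice cannot pass 0.05. Their share was 6.50% and 6.02% in controls and 5.45% and 4.23% in knockouts. Exact 95% binomial intervals (Clopper-Pearson), which cover counting error only, were 5.96% to 7.07%, 5.40% to 6.69%, 4.96% to 5.97% and 3.74% to 4.76%. The knockouts both lay below the controls, with means of 6.26% ± 0.338 (SD, n = 2) and 4.84% ± 0.867 (SD, n = 2). The two-sided exact permutation test over mice gave p = 0.333, the smallest p that 2 mice against 2 can give. Under 1% mitochondrial UMIs the difference shrank from -1.42 to -0.399 percentage points. The groups then overlapped, at 1.51% and 4.34% in controls and 1.69% and 3.36% in knockouts, with only 13 members left in control mouse 1.

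Of all nuclei with at least 3 of the endothelial genes, members were 92.0% and 87.9% in controls and 93.8% and 92.9% in knockouts, the rest being the 138 arterial nuclei. The groups did not overlap, and the difference of 3.39 percentage points gave p = 0.333 in the same exact permutation test. With at least 4 endothelial genes required they overlapped, at 92.8% and 88.9% in controls and 93.8% and 92.7% in knockouts.

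Within the members, the cortical peritubular capillary-like cluster held 50.5% and 43.1% in controls and 66.1% and 53.6% in knockouts. The venous and ascending vasa recta-like cluster held 21.1% and 34.6% against 16.3% and 26.8%, and these ranges overlapped. The *Cryab*-high cluster held 14.1% and 12.5% against 4.59% and 9.96%. Cluster 1 was thus larger and cluster 3 smaller in both knockout mice than in both control mice. These are descriptions with no test.

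**Figure D2:**
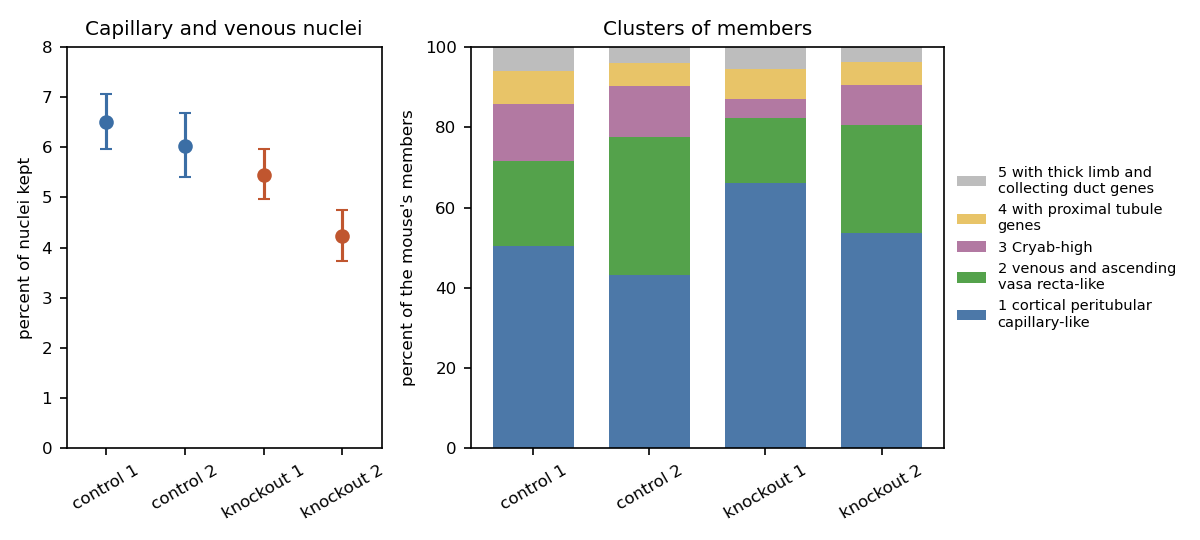
Left, members as a percentage of the nuclei kept in each mouse, with exact 95% binomial intervals. Right, the 5 clusters as percentages of each mouse's members, stacked; cluster 1 (cortical peritubular capillary-like) takes 43.1% to 66.1% and cluster 3 (*Cryab*-high) 4.59% to 14.1%.

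To compare genotypes gene by gene, UMIs of members were summed per mouse and tested with the quasi-likelihood method of edgeR, and p-values were adjusted by Benjamini and Hochberg's procedure over the 12798 genes that had at least 10 UMIs. Genes with an adjusted p under 0.05 were called. *Zbtb16* rose and *Gm6213* and *Sgcz* fell in knockouts, and these 3 genes were 0.0234% of those tested, 0.00781% higher and 0.0156% lower. Another 486 genes had an unadjusted p under 0.05, so that 3.82% of all genes passed that limit, 1.63% higher and 2.2% lower in knockouts. Levels below are CPM after TMM scaling, which corrects for differences in RNA composition, while levels within clusters and in other nuclei are plain CPM.

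*Zbtb16* encodes a zinc-finger transcription factor (PLZF) that glucocorticoids induce in many cell types. It had 129 and 37 UMIs in controls and 336 and 251 UMIs in knockouts, or 133 and 66.9 CPM against 423 and 531 CPM. Both knockout mice stood well above both control mice, with a log2 fold change of 2.22 (SE 0.330, adjusted p = 0.0326). The share of members with a UMI of it was 20.3% and 10.1% in controls and 47.2% and 50.6% in knockouts.

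*Zbtb16* was higher in both knockout mice in each of the 3 clusters without tubule genes. In cluster 1 it stood at 188 and 88.4 CPM against 504 and 770 CPM, in cluster 2 at 119 and 50.8 CPM against 539 and 497 CPM, and in cluster 3 at 78.5 and 82.7 CPM against 246 and 449 CPM. With cluster 1 alone or cluster 2 alone no gene was called, and *Zbtb16* had log2 fold changes of 2.11 and 2.59. Leaving out control mouse 1 or control mouse 2 ended its call, with log2 fold changes of 2.83 (adjusted p = 0.718) and 1.83 (adjusted p = 0.606). So did keeping only nuclei under 1% mitochondrial UMIs, at 2.30 (adjusted p = 0.999), and the stricter count filter of edgeR's filterByExpr (adjusted p = 0.0888). In non-endothelial nuclei it had a log2 fold change of 0.92, and the test of the difference between the 2 changes gave 1.39 (adjusted p = 0.358), so that a larger rise in members was not shown.

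*Gm6213*, listed as a long noncoding RNA, lies at chr8:39297980-39368268 of GRCm38. It had 46 and 24 UMIs in members of controls and 0 and 0 in those of knockouts. With 3 UMIs over the knockout group as the floor, its level was at least 19.7-fold lower in knockouts (edgeR adjusted p = 0.00771). In controls 36 of 503 and 18 of 327 members had a UMI of it, and 0 of 697 members of knockouts did, which by counting error alone allows a share of nuclei with a UMI of up to 0.430%. Its UMIs lay mostly in cluster 1 (15 and 6) and cluster 2 (19 and 17). The much larger sum of non-endothelial nuclei held 6 and 7 UMIs against 4 and 11. The 2 changes were not shown to differ, with an adjusted p of 0.220 for the difference.

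*Sgcz*, a sarcoglycan of the dystrophin complex, lies on the same chromosome at chr8:37517840-38661705, with *Tusc3* between the pair. It had 87 and 26 UMIs in members of controls and 3 and 2 UMIs in those of knockouts, a log2 fold change of -4.10 (SE 0.523, adjusted p = 0.00801). Of the control UMIs, 25 and 2 lay in cluster 4 and 59 and 15 in cluster 5, the clusters with tubule genes. Without these clusters the log2 fold change was -1.77 and the gene was no longer called (adjusted p = 0.9995), while *Zbtb16* (2.34, adjusted p = 0.0265) and *Gm6213* (adjusted p = 0.00984) were. In non-endothelial nuclei *Sgcz* had 5669 and 6321 UMIs against 189 and 411, a log2 fold change of -4.40. Both *Gm6213* and *Sgcz* lost their call without control mouse 1 (adjusted p = 0.718 for each), as they did under 1% mitochondrial UMIs.

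The 3 other genes tested within 1 Mb of *Sgcz* were not called. *Dlc1* had 588 and 362 UMIs in members of controls and 596 and 372 in those of knockouts, *Tusc3* 72 and 32 against 62 and 33, and *Msr1* 12 and 20 against 21 and 24. None of them had an unadjusted p under 0.05.

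**Figure D3:**
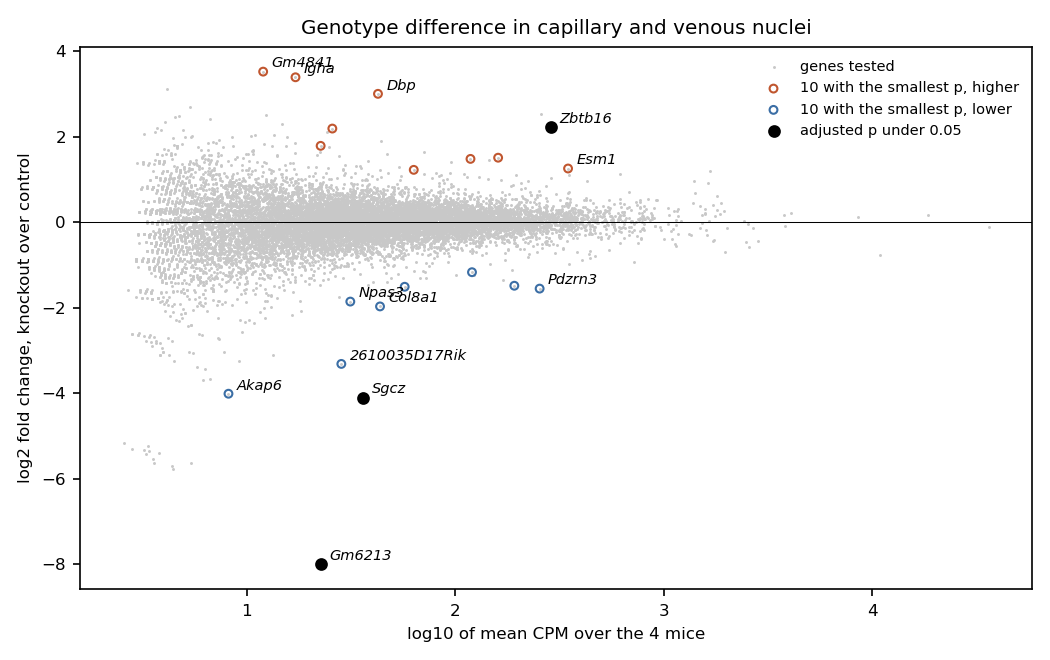
Log2 fold change of knockout over control in members against log10 of mean CPM, 1 point per gene tested. Black points are the 3 genes called, circles the 10 genes per direction with the smallest unadjusted p that did not overlap between genotypes; *Gm6213* at -8.00 has 0 UMIs in both knockout mice, so that its plotted value depends on the fit.

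With fewer than 5 calls per direction, the 10 genes with the smallest unadjusted p and no overlap between genotypes were looked at in each direction. Groups did not overlap in 14.9% of all genes with knockouts higher and 15.9% with them lower, and apart from the 3 genes above none of these was called. Among the higher ones, *Esm1* stood at 235 and 174 CPM in controls and 461 and 521 CPM in knockouts, a log2 fold change of 1.25 (SE 0.280, adjusted p = 0.536). It leads cluster 1, which was larger in knockouts. Within cluster 1 its values were 538 and 452 CPM against 759 and 1037 CPM.

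Other genes in this group were *Dbp*, *Psmb8*, *Psmb9* and *Ciita*, taken up below, and *Mettl24*, *Gm4841*, *Nat8f6* and *Igha*. *Igha*, the heavy chain of IgA that plasma cells make, had 2 and 2 UMIs against 13 and 22, and its sums in non-endothelial nuclei were 182 and 33 against 207 and 51. *Nat8f6* had 9 and 6 UMIs in members against 24 and 19, beside 924 and 489 against 2914 and 3533 in non-endothelial nuclei. The part of free RNA in these genes was not tested.

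Among the lower ones, *Col8a1*, a short-chain collagen of vessel walls, stood at 56.7 and 83.2 CPM in controls and 17.6 and 16.9 CPM in knockouts, a log2 fold change of -1.97 (SE 0.366, adjusted p = 0.208). It is a leading gene of the *Cryab*-high cluster, at 315 CPM there and 33.5 CPM in the tubule-bearing cluster 4. Within the *Cryab*-high cluster it stood at 327 and 483 CPM against 189 and 163 CPM, from 50 and 35 UMIs against 10 and 8. That cluster held 71 and 41 nuclei in controls but 20 and 26 in knockouts, and no test was run within it. *Pdzrn3*, a ubiquitin ligase, had 459 and 158 UMIs against 120 and 50, and in the same cluster 2014 and 869 CPM against 1080 and 184 CPM.

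*Nav2*, a cytoskeletal gene, stood at 179 and 154 CPM against 74.4 and 74.1 CPM in all members, and in the *Cryab*-high cluster at 412 and 496 CPM against 170 and 225 CPM. For *Pdzrn3* the groups overlapped within the cluster, and for *Col8a1* and *Nav2* they did not. The part of the cluster's smaller share in knockouts in these 3 values was not tested. *Gm15962*, by contrast, is a leading gene of cluster 4 and had at most 5 UMIs in any mouse in each of clusters 1 to 3. *Gclc*, which makes the precursor of glutathione, stood at 186 and 384 CPM against 108 and 91.0 CPM, but in cluster 1 at 109 and 93.6 CPM against 95.8 and 96.9 CPM. *Gclc* was highest in cluster 4, and its log2 fold change of -1.49 was -0.22 without the tubule clusters.

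*Npas3* and *Akap6* are neighbours on chromosome 12, at chr12:53248026-54072173 and chr12:52698588-53155568. *Npas3*, a neuronal transcription factor, had 58 and 22 UMIs against 14 and 4 in members, and *Akap6*, an anchor for protein kinase A, 13 and 10 against 1 and 0. In non-endothelial nuclei *Npas3* had 3259 and 1372 UMIs against 32 and 49, a log2 fold change of -5.85 against -1.86 in members. In members under 10 UMIs of tubule genes other than *Kap* the change of *Npas3* was 0.07, and *2610035D17Rik*, the last gene of this group, had 80 and 12 UMIs against 6 and 1.

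Of listed genes of the daily clock and of the glucocorticoid response, many were higher in knockouts, mostly those of the clock, and 1 was called. Cells keep time by CLOCK and ARNTL (BMAL1), which switch on *Per* and *Cry* genes, *Nr1d1*, *Nr1d2* and *Dbp*, and PER and CRY proteins then shut the pair off again. Of 23 genes listed, 20 were tested, and an unadjusted p under 0.05 with knockouts higher was found for 10, beside 1.63% of all genes. Only *Zbtb16* was called, 12 of the 20 did not overlap with knockouts higher, beside 14.9% of all genes, and the median log2 fold change was 0.76. The list mixes both systems and was chosen with earlier results known. Clock genes change through the day, and the hour at which each mouse was killed is not given in the sources used here.

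*Dbp*, a factor that carries the clock's rhythm to its output genes, stood at 12.4 and 3.62 CPM in controls and 40.3 and 114 CPM in knockouts. Its log2 fold change was 2.999 (SE 0.554, edgeR adjusted p = 0.208). *Per2* stood at 9.27 and 7.24 CPM against 17.6 and 63.5 CPM, and *Per1* at 21.6 and 18.1 CPM against 36.5 and 65.6 CPM. *Nr1d2*, a repressor of *Arntl*, stood at 63.9 and 50.7 CPM against 105 and 159 CPM. In all of them the groups did not overlap and knockout mouse 2 was the highest.

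*Arntl*, which peaks opposite to its targets, was lower, at 44.3 and 110 CPM in controls and 44.1 and 14.8 CPM in knockouts, a log2 fold change of -1.21. Knockout mouse 1 lay just below control mouse 1, so that the groups were barely apart. *Fkbp5*, a chaperone that glucocorticoids induce, stood at 171 and 72.4 CPM against 204 and 336 CPM, a log2 fold change of 1.10. The others with an unadjusted p under 0.05 were *Nr1d1*, *Tef*, *Hlf* and *Cry2*, with log2 fold changes between 0.73 and 1.07. *Clock* and *Nr3c1*, the glucocorticoid receptor, did not pass, at 0.25 and -0.21. Nor did *Sgk1*, *Dusp1* and *Tsc22d3*, which were also on the list. Knockout mouse 2 had the highest level of 12 of the 20 genes, against 26.4% of all genes. Without control mouse 1 or 2, 7 and 5 genes were higher at that limit. Without knockout mouse 2 the median was 0.49 with 4 genes higher at that limit, and without knockout mouse 1 it was 1.31 with 11 higher and 1 lower.

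Non-endothelial nuclei had changes in the same direction. There *Per2* had a log2 fold change of 1.80 against 2.11 in members, *Arntl* -1.22 against -1.21, *Fkbp5* 1.07 against 1.10 and *Dbp* 1.17 against 2.999. None of these differences was called, that of *Dbp* having an adjusted p of 0.653. In cluster 1 *Nr1d2* stood at 46.4 and 46.8 CPM against 77.5 and 136 CPM, and in cluster 2 at 81.3 and 44.4 CPM against 137 and 204 CPM. Not all genes held within clusters. In cluster 1 the groups overlapped for *Per1* (32.8 and 5.20 CPM against 25.1 and 72.7 CPM) and *Per2*, but not for *Dbp*, *Nr1d1* and *Tef*. In cluster 2 they overlapped for *Nr1d1* (43.8 and 12.7 CPM against 36.6 and 87.6 CPM) and *Tef*, but not for *Dbp*, *Per1* and *Per2*. The last 3 rest on few UMIs there. *Dbp* had 0 and 0 against 2 and 9, *Per1* 6 and 4 against 6 and 9, and *Per2* 0 and 1 against 1 and 8.

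Promoters of genes in this list were read for the E-box that CLOCK and ARNTL bind. The windows are RefSeq's for GRCm38.p6 and run from 250 bases before a transcript's start to 50 after it. The E-box CACGTG, which reads the same on both strands, was found in 7 of 29 windows of the 16 listed genes that had one (24.1%), against 7.15% of all 32851 windows. It lay in those of *Per1*, *Tef*, *Fkbp5*, *Cry1*, *Sgk1* and *Dusp1*. The site TTANGTAA of DBP, TEF and HLF was in 0 of the 29 windows and 2.32% of all, and the glucocorticoid response element (ACA, 3 bases of any kind, TGT, 1 base of any kind, C) in 1 and 3.11%, read on both strands. The windows of the 3 genes that were also higher in members are shown with the E-box in capitals, *Per1* at chr11:69098699-69098998 (+ strand), *Tef* at chr15:81811164-81811463 (+ strand) and *Fkbp5* at chr17:28486100-28486399 (- strand).
Per1: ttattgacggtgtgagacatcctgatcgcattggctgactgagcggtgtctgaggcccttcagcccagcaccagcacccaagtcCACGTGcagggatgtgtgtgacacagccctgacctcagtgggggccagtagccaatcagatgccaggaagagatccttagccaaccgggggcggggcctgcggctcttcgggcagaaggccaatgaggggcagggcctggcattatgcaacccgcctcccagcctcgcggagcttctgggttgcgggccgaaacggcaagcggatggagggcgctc
Tef: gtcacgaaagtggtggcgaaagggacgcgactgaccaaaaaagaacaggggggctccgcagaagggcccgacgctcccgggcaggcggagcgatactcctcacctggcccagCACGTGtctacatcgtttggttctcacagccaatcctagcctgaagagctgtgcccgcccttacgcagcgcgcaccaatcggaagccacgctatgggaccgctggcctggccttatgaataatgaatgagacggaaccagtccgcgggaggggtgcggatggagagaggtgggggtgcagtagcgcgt
Fkbp5: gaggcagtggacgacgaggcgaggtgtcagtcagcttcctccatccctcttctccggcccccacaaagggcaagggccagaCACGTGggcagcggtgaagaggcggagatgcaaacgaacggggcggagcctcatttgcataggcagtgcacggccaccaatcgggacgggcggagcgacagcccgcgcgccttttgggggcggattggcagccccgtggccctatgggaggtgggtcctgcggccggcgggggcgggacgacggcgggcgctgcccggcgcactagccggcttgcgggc
The E-box begins 166, 138 and 169 bases before the start in these windows. A match is a stretch of letters, not a measured site.

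**Figure D4:**
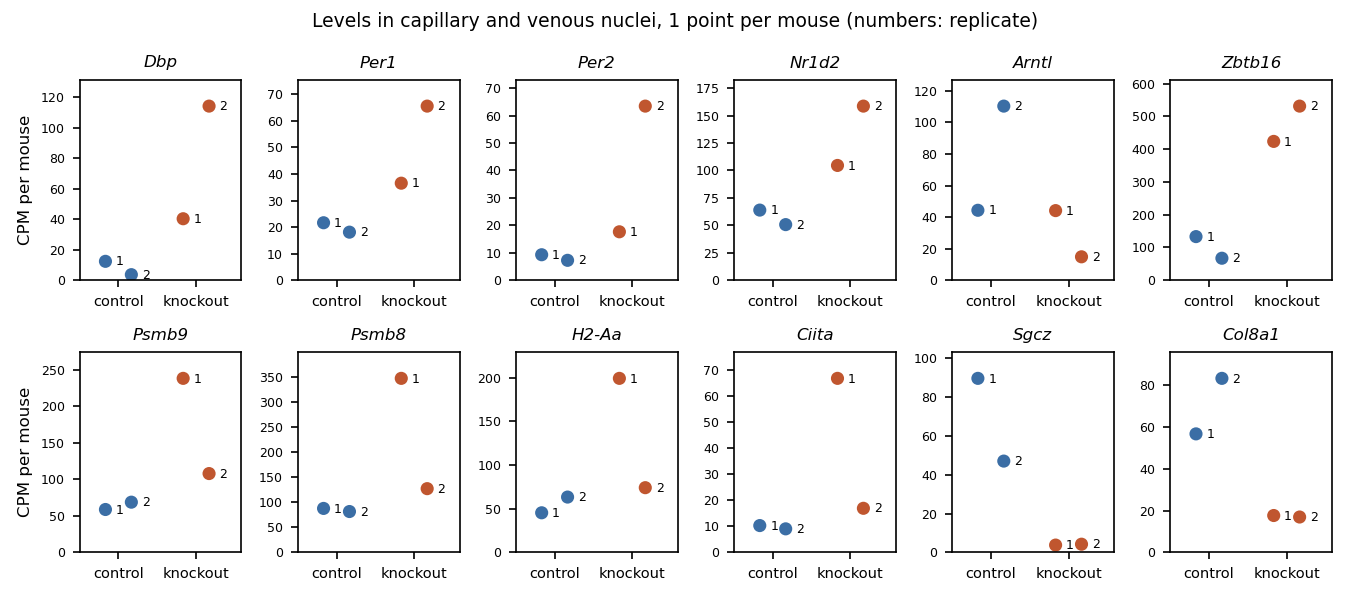
CPM after TMM scaling of 12 genes in the members of each mouse, on linear axes from 0, with blue points for control and orange for knockout mice and the replicate number beside each point. *Dbp*, *Per1*, *Per2* and *Nr1d2* are highest in knockout mouse 2, and *Psmb9*, *Psmb8*, *H2-Aa* and *Ciita* in knockout mouse 1.

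Genes of antigen presentation and of the interferon response were high in 1 of the 2 knockout mice. Interferons raise the immunoproteasome subunits PSMB8 and PSMB9, the peptide transporter TAP1 and MHC molecules, and endothelial cells display antigen by this route. Of 29 genes listed, 27 were tested and 11 had an unadjusted p under 0.05 with knockouts higher, beside 1.63% of all genes; 0 were called, and 13 did not overlap, beside 14.9% of all genes. The median log2 fold change was 0.70. Knockout mouse 1 had the highest level of 24 of the 27 genes, against 24.7% of all genes.

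*Psmb8* stood at 87.6 and 81.4 CPM in controls and 347 and 127 CPM in knockouts, a log2 fold change of 1.51 (SE 0.380, edgeR adjusted p = 0.649). *Psmb9* stood at 58.7 and 68.8 CPM against 238 and 108 CPM. *H2-Aa*, an MHC class II chain, stood at 45.3 and 63.3 CPM against 199 and 74.1 CPM, and *Ciita*, the switch for class II genes, at 10.3 and 9.05 CPM against 66.8 and 16.9 CPM. *Tap1* stood at 14.4 and 27.1 CPM against 118 and 16.9 CPM, so that knockout mouse 2 lay between controls. Knockout mouse 1 was the highest for each of these 5 genes, and knockout mouse 2 lay above both controls for 4 of them.

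Without control mouse 1, 2 of 26 genes were higher at an unadjusted p under 0.05, with a median of 0.58. Without knockout mouse 1, 1 of the 27 genes was higher and 1 lower at an unadjusted p under 0.05, and the median was 0.11. Without knockout mouse 2 it was 1.10, with 18 higher and 8 called, so the list's difference rested on knockout mouse 1. *Psmb8* had the same order of mice within cluster 1, where it stood at 169 and 125 CPM against 467 and 203 CPM, while in cluster 2 knockout mouse 2 lay between controls, with 68.8 and 114 CPM against 347 and 87.6 CPM. In cluster 3 it had at most 1 UMI in any mouse. The immune cell genes of members summed to 51.6 and 28.8 CPM in controls and 85.3 and 34.2 CPM in knockouts, also highest in knockout mouse 1, and their part in this result was not tested. In non-endothelial nuclei *Psmb8* had 46 and 55 UMIs against 134 and 32. *Gm4841*, an interferon-induced GTPase gene of the group above, had 2 and 1 UMIs in members against 30 and 3.

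The promoter windows of this list were read for 2 interferon elements on both strands. The interferon-stimulated response element, a TTTC on either side of 2 bases of any kind, was in 9 of 26 windows (34.6%) against 3.44% of all, among them those of *B2m*, *Gbp2* and *Isg15*. The gamma-activated site TTCNNNGAA, which reads the same on both strands, was in 5 of 26 (19.2%) against 8.3% of all. The windows of 2 genes that were higher in both knockout mice are shown with that site in capitals, *Psmb8* at chr17:34197945-34198244 (+ strand) and *Irf1* at chr11:53769764-53770063 (+ strand).
Psmb8: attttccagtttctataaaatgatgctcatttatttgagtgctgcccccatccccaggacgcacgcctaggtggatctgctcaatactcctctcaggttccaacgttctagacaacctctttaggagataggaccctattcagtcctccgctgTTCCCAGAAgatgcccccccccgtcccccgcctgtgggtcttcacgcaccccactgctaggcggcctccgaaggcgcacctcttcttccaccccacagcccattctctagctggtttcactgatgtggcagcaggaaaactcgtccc
Irf1: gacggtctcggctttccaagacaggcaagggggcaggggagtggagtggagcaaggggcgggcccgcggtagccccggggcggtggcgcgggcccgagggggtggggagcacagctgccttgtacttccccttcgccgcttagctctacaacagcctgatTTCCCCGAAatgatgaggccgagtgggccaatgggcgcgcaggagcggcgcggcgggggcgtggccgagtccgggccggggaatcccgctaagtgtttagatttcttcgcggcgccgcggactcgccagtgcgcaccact

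The other endothelial pathways showed few differences. Lists other than clock, interferon and cell division numbered 17, with median log2 fold changes between -0.43 (osmolyte and tonicity genes) and 0.30 (Notch signalling). Each had at most 4 genes with an unadjusted p under 0.05, and none had a gene called. The most abundant genes of each list are given below, and the others named were chosen for their unadjusted p, after their values were seen. Without the tubule clusters, the angiopoietin, BMP, flow and glucose lists had 0 genes higher in place of 1, the Notch list 1 in place of 2, the angiocrine list 2 in place of 3 and the lipid list 1 lower in place of 2. The junction list had 0 higher and 2 lower, the stress list 1 higher and 2 lower, and the fenestrae list 1 higher. The clock and interferon lists kept 10 and 11 higher.

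**Figure D5:**
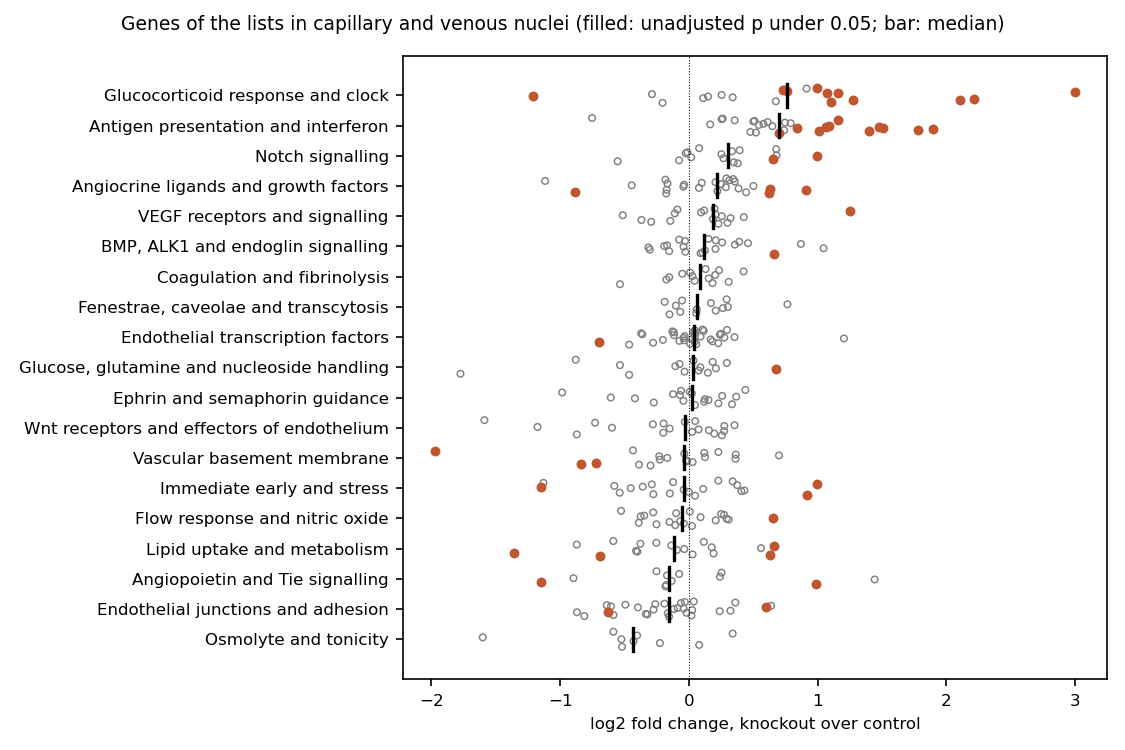
Log2 fold change of knockout over control for the tested genes of each list except cell division, 1 point per gene. Filled points had an unadjusted p under 0.05 and bars are medians; the clock and interferon lists, with medians of 0.76 and 0.70, lie to the right of the others.

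Among genes of VEGF signalling outside the rule, 1 of 17 tested, *Esm1*, passed the unadjusted limit, higher. *Nrp1*, a co-receptor of KDR, stood at 982 and 1122 CPM against 1240 and 1348 CPM (log2 fold change 0.30, unadjusted p = 0.323 by edgeR), without overlap. In the angiopoietin list 1 of 12 was higher and 1 lower. *Angpt2*, the ligand that antagonises TEK, stood at 106 and 86.8 CPM against 46.6 and 40.2 CPM, a log2 fold change of -1.15, and *Angpt1*, its agonist, at 14.4 and 36.2 CPM against 47.9 and 44.4 CPM. *Angpt1* stood at 117 CPM in the tubule-bearing cluster 4 and 22.7 CPM in cluster 2, and its log2 fold change was 0.99, or 0.62 without the tubule clusters. *Angpt2* was mostly in the *Cryab*-high cluster, at 425 and 248 CPM against 341 and 102 CPM, and in cluster 1 its change was 0.25. *Tek* itself stood at 774 and 1283 CPM against 789 and 1022 CPM, with overlap, and *Tie1*, its co-receptor, at 190 and 235 CPM against 180 and 195 CPM.

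In the Notch list 2 of 16 were higher and none lower. *Hes1*, a target of Notch, stood at 120 and 99.5 CPM against 197 and 245 CPM (log2 fold change 1.00, SE 0.274), and *Dll4*, a ligand, at 51.5 and 52.5 CPM against 75.6 and 88.9 CPM. In cluster 1 *Hes1* stood at 177 and 161 CPM against 258 and 388 CPM, without overlap. In cluster 2 it stood at 125 and 63.5 CPM against 119 and 234 CPM, with overlap. *Dll4* was mostly in cluster 1, where it stood at 112 and 135 CPM against 121 and 174 CPM, with overlap (log2 fold change 0.24). In the BMP and endoglin list only *Acvrl1*, the receptor ALK1, passed of 22, at 54.6 and 56.1 CPM against 70.6 and 108 CPM. In cluster 2 its change was -0.64, the other way. The lists of Wnt receptors and effectors (19 genes tested), guidance cues (19), fenestrae and caveolae (13) and coagulation (14) had no gene past the limit. In them *Plxna4*, a semaphorin receptor, had a log2 fold change of 0.12, *Dysf*, a membrane repair protein, -0.05, and *F8*, coagulation factor VIII, 0.18. *Tcf4*, counted in the Wnt list, had 0.15. It encodes a basic helix-loop-helix factor, so its value is no measure of Wnt signalling. The transcription factor list had 1 of 33, *Etv6*, which was lower by 0.70 on the log2 scale, and the flow list 1 of 20, *Dll4*. *Klf2*, the factor that laminar flow induces, stood at 626 and 425 CPM against 552 and 518 CPM.

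Growth factor and lipid genes differed in both directions. *Igfbp5*, a binding protein of IGF, stood at 1398 and 859 CPM in controls and 2146 and 2105 CPM in knockouts, a log2 fold change of 0.91 (SE 0.329). *Igf1* stood at 313 and 735 CPM against 199 and 368 CPM, with overlap, and *Kitl* and *Pdgfb* had log2 fold changes of 0.63 and 0.62, so that 3 of 25 angiocrine genes were higher and 1 lower. *Kitl* is a leading gene of cluster 1, which was larger in knockouts. Within cluster 1 it stood at 453 and 494 CPM against 433 and 732 CPM, with overlap (log2 fold change 0.28). *Pdgfb* had 0.31 in cluster 1 and 1.28 in cluster 2. *Igfbp5* belongs to cluster 1, where it stood at 2834 and 2121 CPM against 3294 and 4312 CPM. *Lpl*, lipoprotein lipase, stood at 186 and 306 CPM against 121 and 63.5 CPM, a log2 fold change of -1.36 (-0.90 without the tubule clusters), and *Cd36*, a fatty acid receptor, at 258 and 356 CPM against 246 and 127 CPM. *Fabp4*, a fatty acid carrier of capillaries, stood at 1689 and 1570 CPM against 1592 and 1733 CPM, with overlap. *Gpihbp1* and *Cd300lg*, markers of cluster 1, were higher by 0.63 and 0.66 on the log2 scale, so that of 18 lipid genes 2 were higher and 2 lower.

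Of 19 basement membrane genes, 3 were lower at the unadjusted limit. *Col4a3* stood at 524 and 613 CPM against 270 and 366 CPM and *Col4a4* at 333 and 413 CPM against 213 and 239 CPM, the third being *Col8a1*. *Col4a3* was highest in the *Cryab*-high cluster, with 1210 and 1889 CPM in controls and 492 and 551 CPM in knockouts, and in cluster 1 it stood at 177 and 93.6 CPM against 103 and 107 CPM. *Col4a1*, the chain of most vessels, had a log2 fold change of -0.30. Of 21 stress genes 2 were higher (*Junb*, *Ddit4*) and 1 lower (*Hspa1b*, at 103 and 72.4 CPM against 47.9 and 29.6 CPM, a leading gene of the *Cryab*-high cluster). The junction list had *Icam2* higher and *Cgnl1* lower among 29 genes, and the list of glucose and nucleoside handling *Glul* higher among 15.

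None of the 9 osmolyte and tonicity genes tested passed, though the members of the 4 mice differed widely in them. *Cryab* stood at 4670 and 1487 CPM in controls and 1814 and 2292 CPM in knockouts, and *Akr1b3* at 958 and 389 CPM against 667 and 489 CPM. *Nfat5*, the tonicity factor, stood at 854 and 1804 CPM against 832 and 1020 CPM. Control mouse 1 was the highest for *Cryab* and *Akr1b3*, control mouse 2 for *Nfat5*.

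Cell division genes were few. Of 22 listed, 10 were tested, their median log2 fold change was -1.63 and 5 were lower at the unadjusted limit, beside 2.2% of all genes. *Mki67* had 12 and 3 UMIs in controls and 0 and 0 in knockouts, and *Top2a* 12 and 1 against 0 and 0. These came from 4 of 503 and 1 of 327 members, and 2 of the 5 nuclei lay in cluster 4. Without control mouse 1 only 3 of the genes were tested, with a median of 0.44, and without the tubule clusters 1 of 6 was lower.

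Whether the genotype difference in members was unlike that in other nuclei was tested gene by gene as an interaction with the mouse as a term. Against the non-endothelial nuclei, 0 of 12798 genes were called by edgeR, 5.92% had an unadjusted p under 0.05, and DESeq2 called 2. *Npas3* had the smallest p, with a difference of 4.11 (adjusted p = 0.0586) and the UMIs given above. Against the arterial nuclei, 3 genes (0.0234%) were called, *Gramd1b*, *Cyp7b1* and *Keg1*, and 3.94% had an unadjusted p under 0.05. Arterial nuclei numbered only 44 and 45 in controls and 29 and 20 in knockouts. *Gramd1b*, also a leading gene of the tubule-bearing cluster 4, had 89 and 2 UMIs in the arterial nuclei of controls and 55 and 67 in those of knockouts, so that control mouse 2 stood apart. No gene was called without control mouse 2, without knockout mouse 1 or without knockout mouse 2, and 22 were without control mouse 1. Without the tubule clusters these 3 genes were not called. *Zbtb16* had 33 and 11 UMIs there against 22 and 35, or 299 and 110 CPM against 358 and 707 CPM, and its difference from members, 1.02, was not called (adjusted p = 1).

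Genes of the collecting duct were sparse in members as a whole, where a list of 13 summed to between 186 and 315 CPM. Cluster 5, with 77 nuclei, met 10 of these 13 as markers. *Tfap2b* had 27 and 10 UMIs against 27 and 8, and *Wnt9b*, a ligand of the collecting duct, had at most 1 in any mouse and was not tested. *Alcam*, an adhesion molecule, had 52 and 26 against 36 and 7 (log2 fold change -0.64, unadjusted p = 0.129 by edgeR). It was highest in cluster 5, at 145 CPM, against 94.7 CPM in cluster 3 and 17.4 CPM in cluster 1. *Ranbp3l* had 101 and 48 UMIs against 38 and 24, a log2 fold change of -0.97 (SE 0.292), beside -1.22 in non-endothelial nuclei, and in cluster 1 its change was 0.40. It was seen in 8.25% of members and 42.8% of non-endothelial nuclei.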

How the data were processed

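Nuclei of 4 mouse kidneys, 1 library per mouse, were profiled with the 10x Chromium 3′ v3.1 chemistry. The authors aligned reads to mm10 with Cell Ranger 3.0.2 and deposited raw UMI counts for 31053 genes and 6794880 barcodes per library, with no normalization. Whether intronic reads were counted is not given in the sources used here. Each mouse is 1 replicate, so with 2 per group p-values rest on few samples.

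From these counts each library's top 10000 barcodes by UMIs were taken, of which 27343 nuclei had more than 500 but fewer than 4000 genes and mitochondrial UMIs below 5% (27341 when genes in fewer than 3 nuclei were dropped first). No doublet caller was run. UMIs were summed per mouse and tested with edgeR 4.0.16 (quasi-likelihood, TMM, at least 10 UMIs over the 4 sums, R 4.3.3), and differences from other nuclei with the mouse as a term. DESeq2 1.42.0, other filters and scalings, other limits of the rule and leaving out each mouse were alternatives. Clusters came from 2000 variable genes, 30 components, 15 neighbours and the Leiden method (leidenalg 0.10.2) at resolution 0.5, shares from exact permutation tests (scipy 1.17.1). On simulated counts for 12778 genes, the genotype test recovered 14.5%, 70% and 90.6% of genes changed by 1, 2 and 3 on the log2 scale, with 1 false call. The simulation gave all genes 1 common spread between mice and drew each mouse independently. In the data same-numbered mice deviated together, so these rates need not hold there.

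Members and gene lists were chosen with earlier results of these data known. Genes named were the called ones or, with under 5 calls in a direction, the 10 with the smallest unadjusted p and no overlap, the 3 most abundant and the called ones of each list, the genes of the rule, the 10 leading genes of members and of each cluster, and *Tfap2a*, *Tfap2b*, *Wnt9b*, *Alcam* and *Ranbp3l*. Gene positions and promoters are RefSeq's for GRCm38.p6, the same assembly as mm10. Some genes are not reported here.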

Additional observations from a re-analysis of the deposited data

Results flagged for a closer look

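The genotype difference of 3 genes was not the same in capillary and venous as in arterial endothelial nuclei, by the edgeR test of the difference itself. *Gramd1b* had 394 and 293 UMIs in members of the control mice and 192 and 108 in those of the knockout mice, and 89 and 2 against 55 and 67 in arterial nuclei, a difference of log2 fold changes of -2.56 (adjusted p = 4.91e-08). *Cyp7b1* had 324 and 257 against 260 and 88 in members and 56 and 6 against 39 and 47 in arterial nuclei, a difference of -2.08 (adjusted p = 0.000491). *Keg1* had 913 and 526 against 483 and 182 in members and 83 and 10 against 39 and 34 in arterial nuclei, a difference of -1.66 (adjusted p = 0.0179). In all 3 genes control mouse 2 was the lowest in arterial nuclei. No gene was called without control mouse 2, without knockout mouse 1 or without knockout mouse 2, and 22 were without control mouse 1. All 3 genes were highest in the tubule-bearing cluster 4 of members, where *Gramd1b* stood at 1734 CPM against 34.9 CPM in cluster 1, *Cyp7b1* at 1076 against 223 CPM and *Keg1*, a gene of the proximal tubule list, at 3015 against 315 CPM. Without the tubule clusters the differences were -1.75, -1.54 and -0.70 (edgeR adjusted p = 0.404, 0.404 and 1).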

How the results depend on the processing

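Under 1% mitochondrial UMIs the knockout minus control difference in the share of members was -0.399 percentage points. It was 0.0960 with under 3 tubule UMIs (14 nuclei) and -2.04 to -0.810 with each mouse left out. Among nuclei with under 3 proximal tubule genes it was -2.50, but there the groups overlapped. For the share among endothelial nuclei it was 9.64 and 18.6 in the first 2 settings and 1.37 to 5.42 with each mouse left out. Knockout mouse 2 held all but 1 of the 14 nuclei, so the 0.0960 and the 18.6 rested on that mouse. Against 3 called genes, edgeR called 32 with no filter and 0 under 1% mitochondrial UMIs, in cluster 1 alone or in cluster 2 alone, the cluster runs being chosen after seeing the data, and 0 to 47 with a mouse left out (0 without control mouse 1, 17 without knockout mouse 1, 47 without knockout mouse 2). With the replicate number as a replicate block it called 118; deviations of same-numbered mice correlated at 0.34 over 5981 genes, but with 2 pairs the mice share only a number. Differences from non-endothelial nuclei numbered 2 with DESeq2, 3 with at least 2 endothelial genes, 101 with filterByExpr, 82 with no filter, 3 under 10 tubule UMIs other than *Kap*, 1 with 0 arterial UMIs, 1 without the tubule clusters and 0 to 65 with a mouse left out. Differences from arterial nuclei numbered 0 with DESeq2, filterByExpr or under 1% mitochondrial UMIs, 8 without TMM, 1 with at least 4 endothelial genes, under 10 tubule UMIs or without the tubule clusters, and 0 to 22 with a mouse left out. The settings on tubule UMIs and clusters were also chosen after seeing the data. Log2 fold changes turned for *Npas3* (0.51 in cluster 1, 0.066 under 10 tubule UMIs), *Angpt2* (0.25 in cluster 1), *Ranbp3l* (0.40 in cluster 1), *Acvrl1* (-0.64 in cluster 2), *Glul* (-0.14 in cluster 2), *Gbp2* (-0.73 in cluster 2, -0.014 under 1% mitochondrial UMIs, -0.25 without knockout mouse 1 and 1.75 without knockout mouse 2) and *Tap1* (-0.20 without knockout mouse 1 and 2.60 without knockout mouse 2). The causes were not tested. Over 69 genes, 984 other values kept their direction and side of the threshold, 80 newly passed it and 42 no longer did. Genotype tests on members under 3 tubule UMIs were not run, since 14 nuclei remained.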

Other observations

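Around *Npas3* on chromosome 12, *Egln3*, a prolyl hydroxylase of the oxygen-sensing pathway, had a log2 fold change of -1.29 in members (unadjusted p = 0.0170 by edgeR, not called) and 0.32 in non-endothelial nuclei. *Arhgap5*, on the other side of *Akap6*, had 0.06 and 0.11. Around *Zbtb16* on chromosome 9, *Rexo2*, *Rbm7* and *Usp28* had -0.08, -0.12 and -0.40 in members, none with an unadjusted p under 0.05. These genes were taken by position, within 1 Mb of a named gene, after the named genes were known.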
